A study of Arabidopsis thaliana with 12 samples.

Results

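Cycloheximide (CHX) was added together with dexamethasone (DEX) to roots of Arabidopsis thaliana, and the RNA of these roots was compared with that of roots given DEX alone. The comparison used the 3 DEX+CHX arrays and the 3 DEX arrays of a series of 12, chosen by their treatment labels. All seedlings carried the genotype 35S::LBD16:GR with arf7-2 and arf19-5, and were 5 days old. They had grown on MS agar in continuous light and were treated for 4 hours with 2 µM DEX, or with 2 µM DEX and 10 µM CHX, before the roots were taken. The replicates of each treatment were independent RNA sets, 1 Affymetrix array each. The 35S promoter drives a fusion of the transcription factor LBD16 with the steroid-binding domain of the glucocorticoid receptor (GR). All arrays compared here received DEX, carry both arf mutations and come from a single transgenic line. None of the groups lacks the fusion or has working ARF7 and ARF19.

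CHX stops elongation by cytosolic ribosomes, while the ribosomes of plastids and mitochondria resist it. Messenger RNAs can rise under CHX when labile repressors or labile decay factors are no longer made, and they can fall when they need newly made proteins. Rapid stress and auxin response genes are the classical examples of transcripts that accumulate in plant tissue treated with CHX, an effect called superinduction. A GR fusion moves into the nucleus once DEX has bound it, and CHX is commonly added in such experiments to separate direct targets from those that need new protein synthesis. The comparison shows what CHX does when given together with the DEX that activates LBD16-GR. It does not measure the effect of LBD16.

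A total of 16550 genes were read, of which 14745 are named by locus alone. Values are log2 expression levels as deposited, without a stated background floor, so a fold change from a low level depends on how the authors' processing treated dim probe sets. Arrays of the same treatment correlated across genes at 0.992 for DEX and 0.992 to 0.994 for DEX+CHX, and arrays of different treatments at 0.874 to 0.884. The array medians over the genes tested were 5.89 to 5.93 with DEX and 5.98 to 6.03 with DEX+CHX. Over the 21686 rows that are paired with several genes or none, however, the medians were 6.26 to 6.30 and 5.33 to 5.41. Those rows differed by a median of -0.58, and 50.5% of them were lower with CHX and 13.0% higher. The whole root was sampled, so a smaller number of cells of a type and less RNA per cell cannot be told apart.

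LBD16 (AT2G42430) itself read 9.38, 9.30 and 9.29 on the DEX arrays and 9.58, 9.44 and 9.52 on the DEX+CHX arrays. All 3 DEX+CHX arrays lay above all 3 DEX arrays, by a mean of 0.19. The exact two-sided permutation test gave p = 0.1, the smallest p that 3 arrays against 3 can give, and limma did not call the gene (adjusted p = 0.146, 95% interval of the difference -0.04 to 0.42). Whether its probe set reads the transgene, the endogenous gene or both was not tested.

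A majority of the genes measured differed between the treatments. Limma called 8935 of the 16550 genes at a Benjamini-Hochberg adjusted p below 0.05 (54.0%). Of these, 3728 (22.5%) were higher with CHX and 5207 (31.5%) were lower. The falls were more numerous but smaller. The median called fall was -0.78 on the log2 scale and the median called rise 1.13. At a difference of at least 2-fold, 2075 genes were higher (12.5%) and 1798 lower (10.9%). At least 4-fold, the counts were 1032 higher and 289 lower, and at least 16-fold they were 323 and 17. The median difference over all genes was -0.12, with quartiles of -0.52 and 0.32, and 7615 genes were not called. Centring each array on its median over all genes tested moved the median difference to -0.22, so small falls should be read against that shift.

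The genes called higher had a median level of 5.99 with DEX and 7.71 with DEX+CHX, and those called lower had 7.70 and 6.69. The DEX level is part of the difference that sorts the genes, so these levels are a description. The genes that were not called had medians of 4.08 and 4.03. When the genes were divided into 5 equal groups by their mean over the 6 arrays, 4.17% of the group with the lowest levels were higher and 10.8% lower. In the group with the highest levels (above 8.36), 27.6% were higher and 47.7% lower, with a median difference of -0.27. The shares of calls in the gene lists described next are to be read against these shares.

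**Figure D1:**
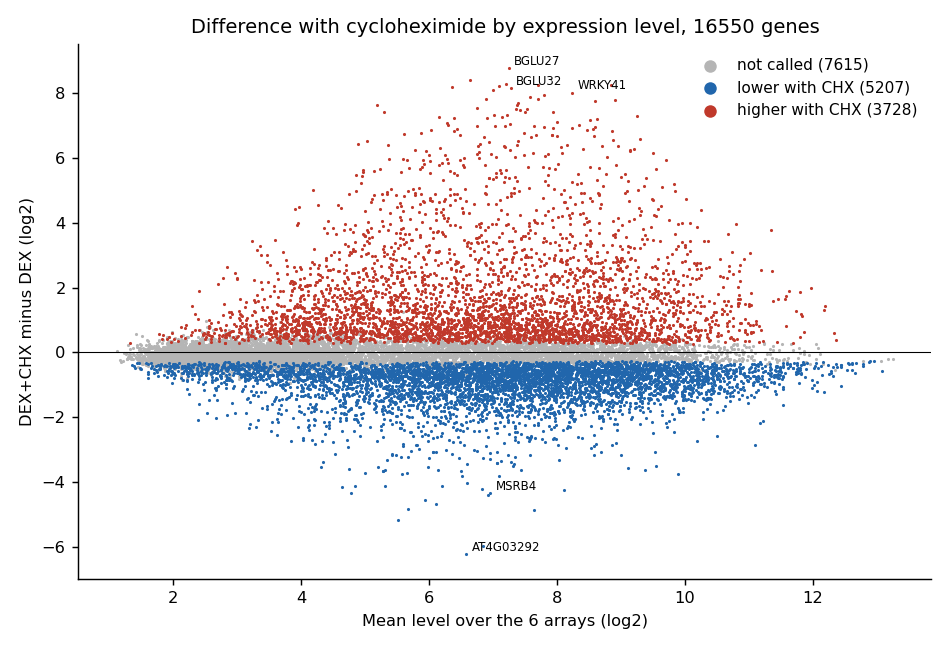
Each point is 1 of 16550 genes, with its mean level over the 6 arrays on the x axis and the DEX+CHX minus DEX difference on the y axis, both log2. The rises (red, 3728 genes) reach 8.75, the falls (blue, 5207 genes) reach -6.22, and genes not called (grey) cluster around 0 and at low levels.

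The largest rise was that of BGLU27 (AT3G60120), a member of the beta-glucosidase family. It read 3.02, 2.85 and 2.73 with DEX and 11.59, 11.61 and 11.65 with DEX+CHX, a 430-fold difference (8.75 ± 0.11, SE of the log2 difference, n = 3 arrays per group, limma adjusted p = 1.7e-08). WRKY41 (AT4G11070), a transcription factor of the WRKY family, read 4.30, 4.33 and 4.07 with DEX and 12.31, 12.11 and 12.29 with DEX+CHX, a 256-fold difference (SE of the log2 difference 0.12, adjusted p = 1.89e-08). Both genes went from the lower part of the scale to close to its top.

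BGLU32 (AT5G24550), another beta-glucosidase, read 3.52, 3.03 and 3.09 with DEX and 11.46, 11.44 and 11.12 with DEX+CHX, which is 280-fold (8.13 ± 0.17). The other 12 of the 15 largest rises are AT1G11925, AT2G04070, AT5G40000, AT1G34050, AT5G52700, AT2G44070, AT3G57460, AT1G06135, AT3G28580, AT1G22810, AT3G21080 and AT5G55150, which have no symbol in the annotation used. AT1G11925 rose by 8.39, from 2.45 ± 0.41 (SD) to 10.84 ± 0.09. AT2G04070 rose by 8.28, from 3.07 ± 0.21 to 11.35 ± 0.04. The 15 genes had mean levels of 2.27 to 5.03 with DEX and 10.5 to 13.0 with DEX+CHX, and rose 218-fold to 430-fold. The median DEX level of all genes was 5.90, and all 15 started below it. A rise of 218-fold or more on a scale reaching 13.98 requires a low start, so these levels follow from the choice of genes.

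The largest fall was that of AT4G03292, which read 9.79, 9.54 and 9.73 with DEX and 3.77, 3.82 and 2.82 with DEX+CHX, 74.5-fold lower (-6.22 ± 0.26, adjusted p = 7.42e-07). AT3G49330 read 9.77, 10.10 and 9.56 with DEX and 4.15, 3.75 and 3.68 with DEX+CHX (-5.95 ± 0.18). For both genes the DEX+CHX arrays lay far below the DEX arrays, although replicate 3 of DEX+CHX read AT4G03292 lower than the other 2. The remaining 13 of the 15 largest falls are AT1G28815, AT1G10380, AT5G57785, AT4G30450, AT5G14940, AT5G07475, AT1G48690, MSRB4, AT5G22020, AT3G50400, AT1G74458, AT1G53542 and AT2G36295. AT1G28815 fell by 5.15 and AT1G10380 fell by 4.84.

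MSRB4 (AT4G04810), which belongs to the methionine sulfoxide reductases that repair oxidised methionine, was the only gene with a symbol among the 15. It read 9.34, 9.26 and 8.77 with DEX and 4.95, 5.06 and 4.34 with DEX+CHX, 20.2-fold lower (-4.34 ± 0.23). The 15 genes had mean levels of 6.71 to 10.2 with DEX and 2.57 to 5.99 with DEX+CHX, and fell 17.1-fold to 74.5-fold.

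**Figure D2:**
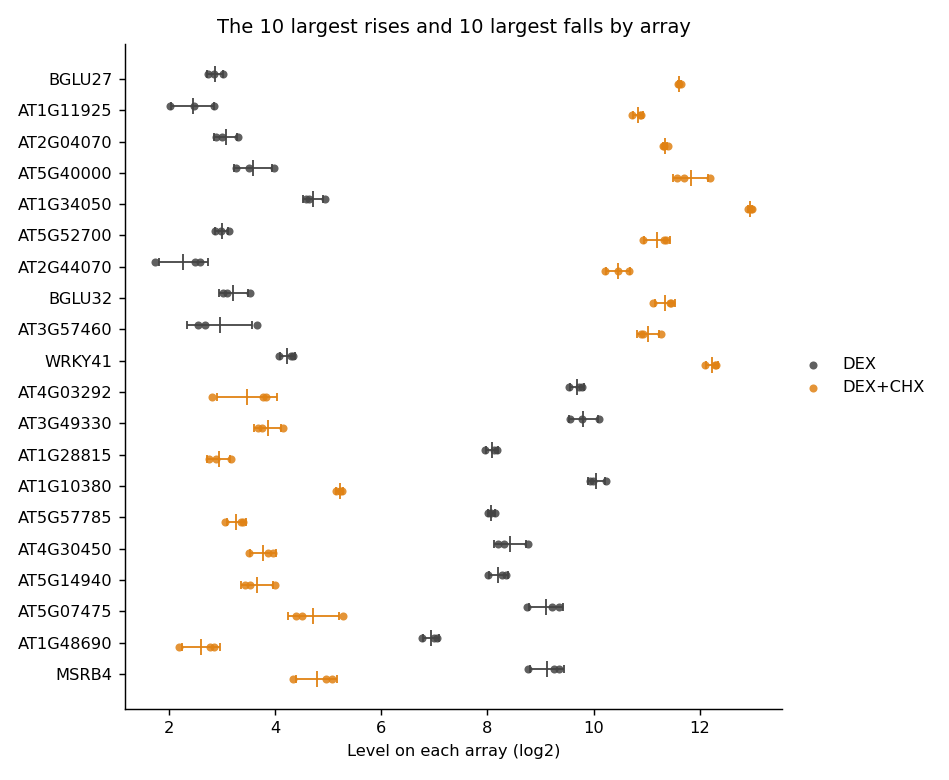
The log2 level on each of the 3 DEX (grey) and 3 DEX+CHX (orange) arrays is shown for the 10 genes with the largest rise and the 10 with the largest fall, with a tick at the group mean and bars of 1 SD. The 20 genes were picked from called genes whose treatments do not overlap. BGLU27 moves from 2.87 to 11.62 while AT4G03292 moves from 9.69 to 3.47.

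Some of the strongest responses lay side by side in the genome. Of the 100 largest rises, 14 were next to another gene of that set in the order of protein-coding genes of assembly TAIR10.1. They are the run AT5G52670, AT5G52680, AT5G52690 and AT5G52700, with AT5G52750 and AT5G52760 close by, the pair BGLU31 and BGLU32, and the pairs AT5G22520 with AT5G22530, AT3G54520 with AT3G54530, and AT1G51913 with AT1G51915. Among the 116 measured neighbours of these 100 genes that are outside the set, 61 (52.6%) were called higher, against 22.5% of all genes. Of the 100 largest falls, 98 could be placed and 6 were adjacent, including MSRB4 and MSRB5, and 54 of the 114 outside neighbours (47.4%) were called lower, against 31.5%. Neighbours are often copies of each other, and whether their probe sets read each other's RNA was not tested.

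WRKY factors regulate stress and immune genes. The annotation used holds 67 of them, of which 7 were measured. Of these, 6 were higher and none was lower, with a median difference of 1.65. WRKY22 (AT4G01250) and WRKY29 (AT4G23550), which act in the response to bacterial flagellin, rose by 4.37 ± 0.17 and 2.56 ± 0.11. WRKY29 was already at 8.96 ± 0.12 (SD) with DEX and reached 11.53 ± 0.05, while WRKY22 went from 5.68 ± 0.31 to 10.05 ± 0.12. WRKY6, a factor of senescence and phosphate responses, stood among the high genes with 10.59, 10.65 and 10.65 in DEX and 12.31, 12.24 and 12.30 in DEX+CHX. Its rise of 1.65 ± 0.09 is modest on this list, yet the arrays were separated by many times their spread. Here and in the lists that follow, every count of 0 was also 0 in limma at an unadjusted p under 0.05, except where stated. Many lists cover part of their family, such as 26 of 237 cytochrome P450s, 8 of 24 Aux/IAA genes and 3 of 36 LBD genes. Statements on a family refer to the members measured.

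The calmodulin-like proteins, which bind calcium in signalling, gave 5 higher and 0 lower of 6, with a median of 2.30. CML38 (AT1G76650) read 3.87, 4.97 and 4.17 with DEX and 9.93, 9.75 and 9.55 with DEX+CHX, a rise of 5.41 ± 0.26. CML37 (AT5G42380) read 4.64, 4.99 and 3.65 with DEX and 9.61, 9.09 and 9.28 with DEX+CHX, a rise of 4.90 ± 0.32. The DEX arrays scattered more than the DEX+CHX arrays for both, with SDs of 0.57 and 0.69 against 0.19 and 0.26, without coming near them. CML43 was the member that was not called.

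Plant U-box (PUB) ubiquitin ligases mark proteins for degradation. PUB22, PUB23 and PUB24 are known to dampen immune responses. Of 10 measured, 8 were higher and 0 lower, all 8 by at least 2-fold, with a median of 2.45. PUB24 (AT3G11840) read 7.09, 7.24 and 7.14 with DEX and 11.89, 11.74 and 11.90 with DEX+CHX, 25.8-fold higher (4.69 ± 0.10, adjusted p = 5.04e-08). PUB23 (AT2G35930) rose by 3.06 ± 0.13, to 12.55, and PUB22 (AT3G52450) by 2.59 ± 0.12, to 10.86. PUB54 (AT1G01680) rose by 4.47 ± 0.25 from a low 3.49. All 4 had their highest DEX array below their lowest DEX+CHX array, as had 3688 of the 3728 genes called higher.

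Ubiquitin-conjugating enzymes (E2) pass ubiquitin on with the help of ligases. Of 15 measured, 11 were lower and 1 was higher, with a median of -0.80. UBC19 (AT3G20060), an E2 expressed in dividing cells, fell by 1.55 ± 0.14, from 9.20 to 7.65. Of 12 ubiquitin-specific proteases, which remove ubiquitin, 7 were lower and 1 higher. These E2 genes had a median DEX level of 9.20, in the range of the group with the highest levels, 47.7% of which were lower. The 4 ATL RING-type ligases measured gave 1 higher and 1 lower.

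Calcium-permeable glutamate receptor-like channels (GLR) gave 6 higher and 2 lower of 10, with GLR2.8 rising by 3.38 ± 0.43 and GLR2.9 by 2.72 ± 0.32. Among 17 IQD proteins, which bind calmodulin, 7 were higher (41.2%) and 5 lower (29.4%), against 22.5% and 31.5% of all genes. IQD22 rose by 2.78 ± 0.14 while IQD20 fell by 1.57 ± 0.15.

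The measured members of transcription factor families other than WRKY were mixed. Of 12 ERF and DREB factors, 6 were higher, all by at least 2-fold, and 5 were lower. DREB2C (AT2G40340), a heat and drought response factor, went from 4.82 ± 0.24 (SD) to 9.61 ± 0.26, and ABR1 (AT5G64750), a repressor of abscisic acid responses, from 5.93 ± 0.09 to 10.37 ± 0.10. LEP (AT5G13910) went the other way, from 9.30 ± 0.07 to 7.03 ± 0.20, a fall of 2.27 on the log2 scale.

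Among 20 bZIP factors, 9 were higher and 4 lower, and the list holds a large change in either direction. BZIP60 (AT1G42990), a factor of the unfolded protein response, read 7.50, 7.33 and 7.54 with DEX and 11.69, 11.58 and 11.68 with DEX+CHX, a rise of 4.19 ± 0.11. In contrast, bZIP58 (AT1G13600) went from 7.11 ± 0.38 (SD) with DEX to 3.45 ± 0.23 with DEX+CHX, and fell by 3.66. The genes had similar levels with DEX and lay at opposite ends of the range with CHX. Of 23 bHLH factors, 5 were higher (21.7%) and 5 lower (21.7%), against 22.5% and 31.5% of all genes. BHLH92 rose by 6.88 ± 0.35.

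Enzymes of redox and specialised metabolism included some of the largest rises, but most of their families did not move as a whole. The alternative NAD(P)H dehydrogenases, which bypass complex I in mitochondria, were an exception, with 4 of 4 higher and a median of 1.79. NDB4 (AT2G20800) read 4.79, 4.66 and 5.04 with DEX and 11.65, 11.96 and 11.93 with DEX+CHX, 129-fold higher (7.01 ± 0.14). NDB3 rose 4.2-fold, from 3.52 to 5.59, and NDB2 2.84-fold, from 10.08 to 11.59. NDC1 rose by 0.45 ± 0.13 (adjusted p = 0.0209), and this call was lost when any of DEX replicate 1 and DEX+CHX replicates 2 and 3 was left out.

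Of 24 beta-glucosidases, 9 were higher, 6 lower and 9 not called. Besides BGLU27 and BGLU32, BGLU31 (AT5G24540) rose by 6.96 ± 0.28, and these 3 stood well apart from the next, BGLU46, at 2.83 ± 0.17. PYK10 (AT3G09260), the abundant beta-glucosidase of root ER bodies, was among the 5 genes with the highest level. It read 13.36, 13.38 and 13.37 with DEX and 12.87, 12.79 and 12.74 with DEX+CHX, and fell by 0.57. The family thus held the largest rise of all genes and a small fall in its most abundant root member.

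UDP-glycosyltransferases, which attach sugars to hormones and metabolites, gave 14 higher and 18 lower of 52. These shares of 26.9% and 34.6% are near those of all genes, 22.5% and 31.5%. UGT84B1 (AT2G23260), which conjugates auxin with glucose, rose from 2.15 ± 0.16 (SD) to 7.78 ± 0.19, and UGT73C6 from 2.77 ± 0.11 to 7.41 ± 0.33. UGT74F1, which glucosylates salicylic acid, fell by 1.70. Of the 14 rises 13 were at least 2-fold, against 8 of the 18 falls. Of 15 glutathione transferases, 4 were higher and 9 lower. GSTF3 rose by 3.12 ± 0.11, GSTU25 by 2.92 ± 0.13 and GSTU22 by 2.56 ± 0.18, while GSTU18 fell by 2.13.

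Of 8 aldehyde dehydrogenases, which detoxify aldehydes, 6 were lower and 0 higher. ALDH7B4 (AT1G54100) fell by 1.32, from 9.50 to 8.18. The methionine sulfoxide reductases were split, with 2 higher and 3 lower of 7. MSRB8 (AT4G21840) read 5.96, 6.14 and 5.34 with DEX and 11.50, 11.51 and 11.46 with DEX+CHX, a rise of 5.67 ± 0.20. MSRB5 (AT4G04830), next to MSRB4, read 7.22, 6.89 and 6.55 with DEX and 2.37, 2.78 and 3.23 with DEX+CHX, and fell by 4.10. Members of one enzyme family were therefore among the stronger responses in both directions. Of 26 cytochrome P450s with such symbols, 5 were higher and 3 lower.

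**Figure D3:**
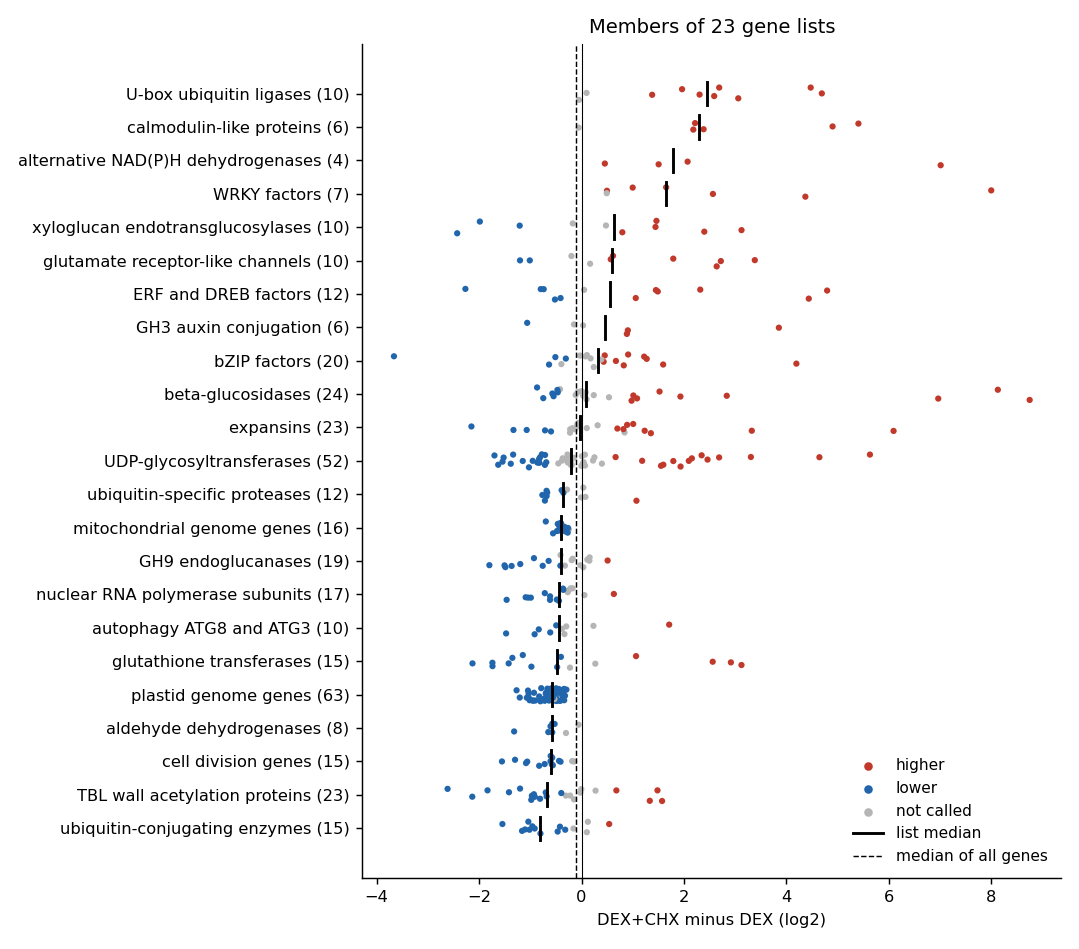
Each point is the DEX+CHX minus DEX difference (log2) of 1 member of a gene list, red if called higher, blue if called lower and grey if not called, for 23 lists with the number of measured members in brackets (vertical scatter within a row carries no value). Black ticks mark list medians, from 2.45 for the U-box ligases to -0.80 for the ubiquitin-conjugating enzymes, and the dashed line marks the median of all genes, -0.12.

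LBD16 acts downstream of auxin in lateral root formation, and genes of auxin metabolism and response moved in both directions. The GH3 enzymes, which conjugate auxin to amino acids, gave 3 higher and 1 lower of 6. GH3.1 (AT2G14960) read 8.05, 8.67 and 8.09 with DEX and 12.20, 12.12 and 12.03 with DEX+CHX, 14.4-fold higher (3.85 ± 0.18, adjusted p = 1.14e-06). GH3.3 (AT2G23170) read 8.99, 8.60 and 8.20 with DEX and 9.80, 9.40 and 9.24 with DEX+CHX, a rise of 0.88 ± 0.22. The GH3.3 groups stood close to each other, in contrast to those of GH3.1. GH3.9 rose by 0.90 ± 0.13 and GH3.17 fell by 1.06. WES1, the gene also known as GH3.5, differed by 0.03 (95% interval -0.22 to 0.27), and GH3.4 by -0.15 (-0.71 to 0.41).

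Aux/IAA proteins repress auxin responses. Of 8 measured, 3 were higher and 2 lower, and most of the 8 belong to the atypical members that lack the auxin degradation motif. IAA30 (AT3G62100) read 3.03, 2.75 and 3.12 with DEX and 6.16, 6.08 and 5.99 with DEX+CHX, a rise of 3.11 ± 0.13. IAA20 rose by 1.43 ± 0.13 and IAA29 by 0.66 ± 0.15. IAA33 fell by 1.09 and IAA31 fell by 0.76 (adjusted p = 0.031), and the IAA31 call was lost without DEX replicate 3 or DEX+CHX replicate 2. IAA15, IAA18 and IAA34 were not called. All the risers were at low DEX levels, 2.96 to 3.28, while IAA31 and IAA33 were at 6.29 and 4.98.

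YUC flavin monooxygenases make auxin. Of 4 measured, 2 were lower and 0 higher. YUC6 (AT5G25620) fell by 1.00, from 6.80 to 5.80, and YUC2 (AT4G13260) fell by 0.85, from 4.41 to 3.57. Of 8 cytokinin response regulators, RR18, a type-B factor, rose by 1.63 ± 0.17 and RR16, a type-A repressor, fell by 1.24. ARR15 differed by 0.69 without passing the test (adjusted p = 0.0603).

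Of 9 lateral root regulators on the list, 4 were higher and 2 lower. PUCHI (AT5G18560), an AP2/ERF factor of lateral root initiation, read 3.87, 3.57 and 3.96 with DEX and 5.61, 5.33 and 4.93 with DEX+CHX, 2.8-fold higher (1.49 ± 0.19, adjusted p = 0.000297). The listed locus AT4G37290 read 4.09, 4.49 and 4.51 with DEX and 9.20, 8.53 and 8.31 with DEX+CHX (4.32 ± 0.24). Its list neighbour AT4G37295 read 7.89, 7.95 and 7.64 and then 9.74, 9.52 and 9.28 (1.69 ± 0.15). None of these 3 genes had overlapping groups, which also holds for 3688 of the 3728 genes called higher. The CHX effect on AT4G37295 differed from that in roots without DEX, where it rose by 3.70 (adjusted p of the difference = 0.0076).

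AT5G66815 rose by 1.18 ± 0.27, between the low levels of 1.75 and 2.92. LHW (AT2G27230), a bHLH factor of root vascular development, fell by 0.84, and RALFL34 (AT5G67070), a peptide of the lateral root founder cells, fell by 1.77. RALFL34 read 7.92, 8.01 and 7.93 with DEX and 6.27, 6.13 and 6.13 with DEX+CHX, a tight separation of the groups. LBD29 (AT3G58190) differed by -0.28 (95% interval -0.66 to 0.09) and the receptor kinase gene CR4 (AT3G59420) by -0.14 (-0.50 to 0.22). With LOB, at 0.20 (-0.06 to 0.46), all 3 LBD genes measured were uncalled.

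**Figure D4:**
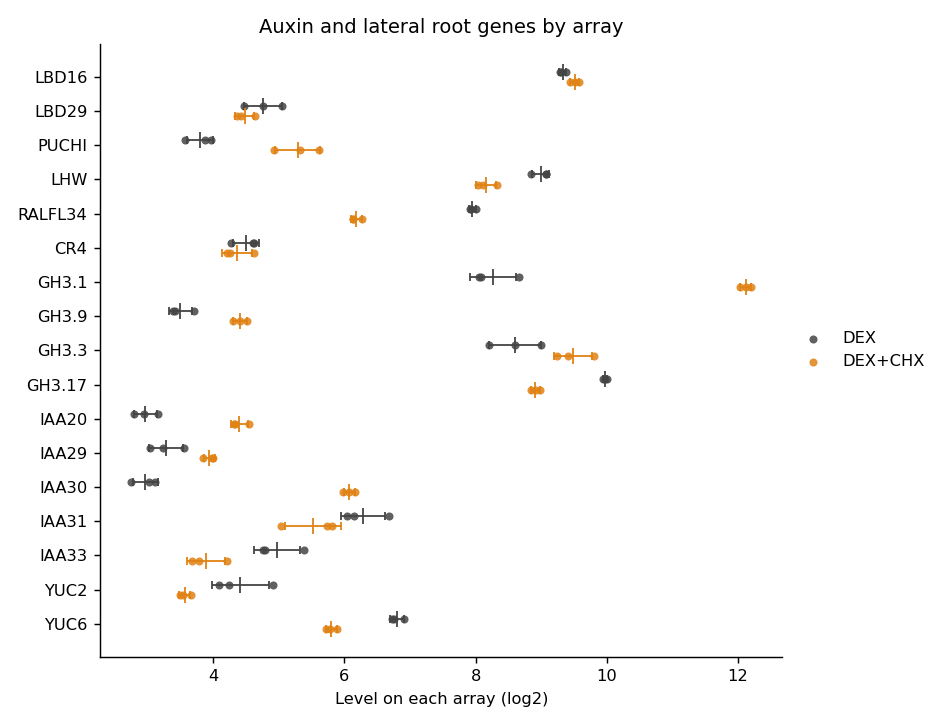
The log2 level on each of the 3 DEX (grey) and 3 DEX+CHX (orange) arrays is shown for 17 auxin and lateral root genes, with a tick at the group mean and bars of 1 SD. GH3.1 (8.27 to 12.12) and IAA30 (2.97 to 6.07) are widely separated, while the groups of LBD29 and CR4 overlap.

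Genes for secreted peptides included strong changes in both directions, among them falls of abundant transcripts. Of 69 defensin-like peptides of the LCR and PDF families, 10 were higher, 12 lower and 47 not called. These shares of 14.5% and 17.4% are below those of all genes, 22.5% and 31.5%. Their median DEX level was 2.63, in the range of the group with the lowest levels, of which 4.17% were higher and 10.8% lower. LCR69 (AT2G02100) read 11.85, 11.85 and 11.60 with DEX and 8.20, 7.76 and 8.10 with DEX+CHX, 13.4-fold lower (-3.75 ± 0.15). LCR68 (AT2G02130) read 11.01, 10.80 and 10.81 with DEX and 7.51, 7.12 and 7.37 with DEX+CHX, and fell by 3.54. Both transcripts were near the top of the scale with DEX and at middle levels with CHX. Of 12 SCRL peptides, 2 were higher (16.7%) and 1 lower (8.33%). SCRL25 rose by 5.94 ± 0.21 and SCRL26 by 5.27 ± 0.16.

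Of 18 RALF-like peptides, which signal through receptor kinases and alter cell expansion, 2 were higher (11.1%) and 4 lower (22.2%). Both shares are below those of all genes, 22.5% and 31.5%. RALFL21 rose by 4.41 ± 0.22 and RALFL33 by 2.08 ± 0.12, whereas RALFL32 (AT4G14010) fell by 3.07, from 7.60 to 4.52. Of 17 CLE peptides, which act in meristem and vascular signalling, 6 were higher (35.3%) and 2 lower (11.8%). CLE14 rose by 2.30 ± 0.12, from 7.88 to 10.18, and CLE41, which maintains the vascular cambium, by 1.56 ± 0.14.

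Cell wall genes were also divided by family. Expansins loosen walls, and 8 of 23 were higher (34.8%) and 5 lower (21.7%), against 22.5% and 31.5% of all genes. The expansin-like EXLA3 (AT3G45960) read 3.14, 2.79 and 2.92 with DEX and 9.56, 8.83 and 8.73 with DEX+CHX, a rise of 6.09 ± 0.22, and EXLA2 (AT4G38400) rose by 3.32 ± 0.21. EXPB3 (AT4G28250) fell by 2.15, from 10.56 to 8.41. Of 10 xyloglucan endotransglucosylases, which cut and rejoin wall xyloglucan, 5 were higher and 3 lower. XTH18 rose by 3.12 ± 0.15 and XTH33 by 2.40 ± 0.16, while XTH32 fell by 2.43 and XTH21 fell by 1.99.

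The GH9 endoglucanases were lower in 9 of 19 cases and higher in 1. GH9B6 (AT1G23210) read 7.23, 7.01 and 7.03 with DEX and 5.30, 5.29 and 5.28 with DEX+CHX, and fell by 1.80. TBL proteins, a family that includes wall polysaccharide acetyltransferases, were lower in 13 of 23 cases and higher in 4, with a median of -0.68. TBL30 (AT2G40160) fell by 2.62 and TBL19 fell by 2.13, while TBL42 rose by 1.57 ± 0.25. Of 10 subtilases, which are secreted proteases, 5 were lower and 2 higher, and ATSBT5.2 fell by 3.07. Of 32 serine carboxypeptidase-like genes, 11 were lower (34.4%) and 4 higher (12.5%), against 31.5% and 22.5% of all genes. Among those higher was scpl30 (4.34 ± 0.21).

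Of 17 nuclear RNA polymerase subunits, 11 were lower and 1 higher, with a median of -0.44. NRPB10 (AT1G11475) read 8.39, 8.42 and 8.64 with DEX and 6.79, 7.05 and 7.23 with DEX+CHX, and fell by 1.46. Of 6 LSM proteins, which act in splicing and mRNA decapping, 4 were lower and 0 higher, from LSM3A at -1.34 ± 0.14 to LSM6B at -0.37 ± 0.11. The LSM6B call was lost without DEX replicate 1 or 3 or DEX+CHX replicate 1 or 2. Mediator subunits gave 3 lower (37.5%) and 1 higher (12.5%) of 8, against 31.5% and 22.5% of all genes. The 3 mRNA decay factors measured split, with UPF3 of nonsense-mediated decay higher (0.40 ± 0.11), AT2G39260 lower (-0.61 ± 0.10) and VCS not called. The UPF3 call was lost with quantile normalization (adjusted p = 0.0805).

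Of 15 cell division genes, 13 were lower and 0 higher, with a median of -0.60. TSO1 (AT3G22780), a CXC-domain regulator of division, read 9.20, 9.17 and 9.12 with DEX and 7.56, 7.68 and 7.59 with DEX+CHX, and fell by 1.55. KINESIN-12B (AT3G23670), a motor of the phragmoplast, was 2.46-fold lower, the centromeric histone gene HTR12 (AT1G01370) fell by 1.08, and the Aurora kinase gene AUR2 (AT2G25880) fell by 1.06. The members not called were PRL, an MCM subunit of the replication machinery, and CYCJ18. The list's median DEX level was 8.24, just below the group with the highest levels, in which 47.7% of genes were lower.

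Trafficking genes showed no common direction. Among all genes, 22.5% were higher and 31.5% lower, and the shares of the exocyst and SEC genes and of the PRA1 genes were near these. Of 12 exocyst and SEC genes, 3 were higher and 4 lower, with SEC1B rising by 2.28 ± 0.10 and SEC6 lower (-1.60 ± 0.12). Of 14 PRA1 genes 4 were higher and 5 lower, and of 10 VPS genes 3 were higher and 2 lower. The autophagy list held only ATG8 genes and ATG3, and of these 10 genes 5 were lower and 1 higher. ATG8E (AT2G45170) rose by 1.71 ± 0.16, from 8.60 to 10.31, and ATG8B (AT4G04620) fell by 1.47, although both encode forms of the same autophagosome protein.

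Transport and membrane families were also mixed, to be read against 22.5% higher and 31.5% lower among all genes. The 14 SWEET sugar transporters gave 3 higher, with SWEET8 at 2.43 ± 0.21, and 4 lower. The 12 tetraspanins gave 4 and 4, from TET8 at 1.96 ± 0.14 to TET5 at -1.68 ± 0.10. The 9 CHX-type cation/proton exchangers, whose name is unrelated to the drug, gave 1 higher and 2 lower. The 14 TRM microtubule-associated proteins gave 1 higher and 3 lower.

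The listed genes of the organelle genomes were called lower almost without exception, and within a narrow range. Of 63 plastid genome genes, 62 were lower and 0 higher, with a median of -0.57, and differences ran from -1.27 to -0.30. At an unadjusted p under 0.05 all 63 were lower. The 7 that fell at least 2-fold included ndhC, a subunit of the plastid NDH complex, which read 9.98, 9.96 and 9.87 with DEX and 8.56, 8.67 and 8.77 with DEX+CHX. The plastid maturase gene matK fell by 1.07, from 12.07 to 11.00, and rps16, a ribosomal protein gene, fell by 1.21. The Rubisco large subunit gene rbcL read 11.79, 11.84 and 12.22 and then 10.89, 10.86 and 11.22, and fell by 0.96. The groups of these genes did not overlap, which also holds for 5154 of the 5207 genes called lower. For rbcL, replicate 3 stood above the others in both treatments.

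Of 16 mitochondrial genome genes, 15 were lower and 0 higher, with a median of -0.41 and a range of -0.70 to -0.25. The cytochrome oxidase gene cox2 fell by 0.46 and the maturase gene matR fell by 0.48. The remaining gene, cox1, read 13.15, 13.18 and 13.22 with DEX and 12.91, 12.93 and 12.96 with DEX+CHX, and was not called (-0.25 ± 0.09, adjusted p = 0.0556). With quantile normalization 57 plastid and 13 mitochondrial genes were called lower, and with arrays centred 63 and 16. The median DEX levels of the lists were 11.1 and 12.1, and the group of genes with the highest levels had a median difference of -0.27. The rows with several genes or none had a median difference of -0.58, and the part of such a shift of scale in these falls was not tested.

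Besides PYK10, the genes with the highest mean levels were those listed as rpl2, AT2G07741, cox1 and nad4L. They differed by -0.21, -0.21, -0.25 and -0.26, and of these nad4L alone was called (adjusted p = 0.0494), a call lost without any single array of the 6. The gene listed as rpl2 was on neither organelle list and was not called (limma adjusted p = 0.0994).

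Few markers of cell types were measured. Of 4 root hair markers listed, 2 were measured. Both of these fell, with differences of -1.07 ± 0.11 for EXPA7 (AT1G12560) and -1.33 ± 0.13 for EXPA18 (AT1G62980). By mean level EXPA18 lay in the group with the highest levels, of which 47.7% were lower. EXPA7 lay in the next group, of which 41.1% were lower. EXPA7 read 8.46, 8.55 and 8.67 with DEX and 7.45, 7.42 and 7.59 with DEX+CHX. Of the shoot markers, the protochlorophyllide reductase gene PORB rose by 1.23 ± 0.27, from 4.36 to 5.58, and the Rubisco activase gene RCA fell by 0.46 (adjusted p = 0.0468), a call lost without any 1 of 5 of the 6 arrays. None of the listed markers of endodermis, xylem, phloem, root cap, pericycle or root stem cells matched a row paired with 1 gene, and rows without a gene name were not searched for them. Whether the share of root hair cells moved with the falls above was not tested.

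Most of these genes were also called for CHX in roots without DEX. Of the 8935 genes called here, 7887 (88.3%) were also called in CHX arrays against mock arrays, which makes 86.8% of the 9090 genes called there. The direction was the same for 7880 of them and opposite for 7. Across the 16550 genes, the differences with and without DEX correlated at r = 0.975 (Spearman rho 0.917). The pairs of groups share no arrays, but genes are not independent replicates and all 12 arrays come from the same line and platform.

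The difference between both CHX effects was called for 21 genes (0.127%). The largest was that of SCRL26 (AT4G22105), which rose by 5.27 with DEX and by 1.06 without. At the other extreme, AT1G07690 rose by 0.83 with DEX and by 3.90 without. Its mean level was 5.65 in mock and 9.16 in DEX roots, while both CHX treatments brought it to 9.55 and 9.98. AT1G10640 fell by 2.60 with DEX and differed by -0.14 without. AT1G10380, one of the 15 largest falls, was also among the 21, at -4.84 with DEX and -3.75 without. BGLU27 and WRKY41 were not among them.

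**Figure D5:**
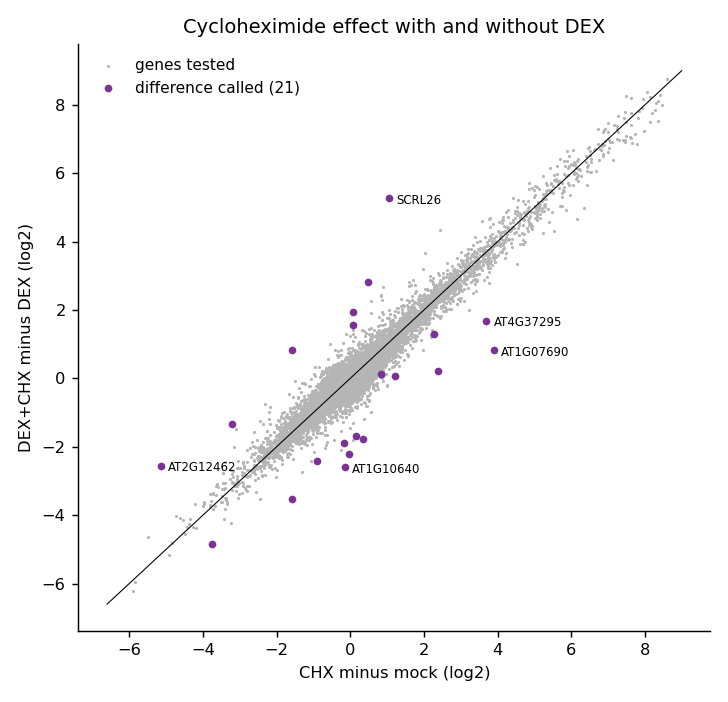
Each grey point is 1 of 16550 genes, with the CHX effect without DEX (CHX minus mock, log2) on the x axis and with DEX (DEX+CHX minus DEX, log2) on the y axis, and the line marks equal effects. The 21 genes for which the difference was called are purple, and SCRL26 (1.06 without DEX, 5.27 with DEX) lies farthest above the line.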

How the data were processed

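Root RNA was isolated on RNeasy columns and turned into biotinylated sense-strand DNA targets, per the labels' protocols. The authors processed the arrays with Affymetrix Expression Console 1.3, per the submitters' processing notes. How they were summarized and normalized is not given in the sources used here. Values as deposited by the authors were taken to be log2 expression, since they ran from 0.487 to 13.98, and were not normalized again. The number of arrays limits the precision.

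Of 38408 rows, 16722 were paired with 1 gene by the array's annotation, 759 with several and 20927 were unnamed. For 16550 genes the brightest probe set over the 6 arrays was kept, leaving out 172. Symbols and gene order came from RefSeq (TAIR10.1), which matched 16411 genes. Coordinates and sequences were not used here.

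Limma 3.58.1 in R 4.3.3 (lmFit and eBayes, two-sided, Benjamini-Hochberg over all 16550 genes, adjusted p below 0.05) was fitted to the 6 arrays with 1 mean per group. The calls of CHX against mock and the difference of CHX effects used a fit to all 12 arrays. LBD16 was compared by exact permutation over arrays. The method was tested on simulated arrays in which 200 genes changed and no shift of scale was set. The real arrays differ from that setting, with 54.0% of genes called. p-values measure the spread between RNA sets.

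Genes and the 58 gene lists were chosen with earlier results of these data known. The lists were drawn up from symbols and loci after a first fit had been seen, and 52 had a measured member, of which 1 is not reported here. Named are the 15 largest rises and falls with groups that do not overlap, up to 4 called members per list (all of lists under 10), lateral root and marker genes, the 5 highest levels and the 5 largest differences of CHX effects per direction. PUB22, UGT74F1, CLE41, rbcL and the neighbouring loci were chosen after their values were seen. Same-numbered arrays of the 2 treatments had correlated deviations of 0.0853, 0.0723 and 0.189, and differently numbered arrays -0.119 to 0.0365. The main fit did not read them as pairs, and the replicate block was run as an alternative. The alternatives were a fit to all 12 arrays, the replicate block, quantile normalization, centring, leaving out the dimmest 30%, all rows, mean of probe sets, trended and robust variance, a 2-fold minimum, an adjusted p of 0.01 and each array left out.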

Additional observations from a re-analysis of the deposited data

Results flagged for a closer look

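For 10 genes the effect of CHX differed between roots with and without DEX by the test of the difference itself, taking the 5 largest per direction of the 21 called. The CHX effect with DEX was higher than without by 4.21 for SCRL26, 2.57 for AT2G12462, 2.41 for AT4G03420, 2.34 for AT3G16660 and 1.88 for AT2G25150 on the log2 scale. It was lower for AT1G07690 (-3.07), AT1G10640 (-2.46), AT2G19970 (-2.18), AT3G22060 (-2.16) and AT1G62770 (-2.11). The adjusted p-values of limma ran from 0.000179 for AT1G07690 to 0.0373 for AT2G25150. AT2G25150 lost its call in the fit with the replicate block (adjusted p = 0.0599) and in 9 of the 12 fits that leave out 1 array. AT2G12462 and AT2G25150 fell less with DEX than without, at -2.56 against -5.13 and -1.33 against -3.22. AT4G03420 rose by 0.84 with DEX and fell by 1.57 without. Groups of 3 arrays were not tested for outlying samples.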

How the results depend on the processing

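The counts of 3728 genes higher and 5207 lower kept within 1.5 times under every alternative except a minimum of 2-fold, which left 2075 and 1798. They were 3860 and 5376 in a fit to all 12 arrays, 3438 and 5742 with quantile normalization, 3333 and 6234 with centred arrays, 3033 and 3954 at an adjusted p below 0.01, and 3349 to 3540 and 4558 to 4971 without any 1 array. With the replicate block they were 3763 and 5230. Same-numbered arrays each correlated best with their own number, a hint from the data and not from the design. Averaging a gene's probe sets turned the sign of 2 called genes. The genes whose CHX effect differed numbered 17 to 23 without any 1 array, 22 with the block and 29 without the dimmest 30% of genes. The LBD16 difference was 0.10 with quantile normalization and 0.09 with centred arrays (exact permutation p = 0.2 for both).

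With quantile normalization or centring, more members were called lower among the ATG8 and ATG3 genes (8 and 8, against 5) and TRM proteins (6 and 7, against 3). The same held for cytochrome P450s (6 and 6, against 3) and VPS genes (4 and 4, against 2). Among the genes named or listed, 46 alternatives of single genes ended a call and 44 made one. ALDH11A3, ATL63 and TRM20 lost their calls on leaving out single arrays, and CHX15 did so also with the block. The cause was not tested.

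Among the genes named or listed, the signs that turned were of genes that were not called. With quantile normalization WES1 was -0.080, ATL43 -0.11 and MED19A -0.11. With centring WES1 was -0.074, ATL43 -0.095, RR21 -0.048, MED19A -0.087, RR23 -0.028 and RR19 -0.076. Leaving out single arrays gave -0.11 to 0.0052 for ALDH2C4, -0.032 to 0.063 for WES1, -0.053 to 0.13 for ATL43, -0.16 to 0.30 for RR21, -0.013 to 0.040 for MED19A, -0.40 to 0.14 for RR24, -0.26 to 0.075 for CML43, -0.019 to 0.12 for RR23, -0.081 to 0.11 for RR19, -0.23 to 0.066 for IAA18, -0.39 to 0.10 for GH3.4 and -0.19 to 0.13 for IAA15.

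Low levels have no stated floor, and 3 arrays a group limit the precision. The fall of rows with no single gene shows that the median over the genes tested and that over all rows moved in opposite directions, so small differences depend on which rows set the scale.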
